A study of Mus musculus with 16 samples.

Results

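AP-1 is a family of leucine zipper transcription factors, described here by 8 genes: Fos, Fosb, Fosl1, Fosl2, Jun, Junb, Jund and Atf3. The members were taken by gene symbol from the probes of the arrays. They had 9 probes among 20339 named probes, and they are 8 of the 17710 genes measured. Fos proteins pair with Jun proteins, and the pairs bind short DNA sites in front of their target genes. Fos, Fosb, Jun, Junb and Atf3 are immediate early genes, whose transcripts rise fast and briefly after growth factors, stretch or stress, whereas Fosl1 and Fosl2 are usually induced later and Jund is made more steadily. In the heart, AP-1 genes are known for their response to haemodynamic load.

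The series compared cardiac progenitor populations with cardiomyocytes, in 16 arrays from C57BL/6 mice of the genotype that the labels call Normal, with no age stated. The heart gave c-kit+ cells (3 arrays), flow sorted for the receptor of stem cell factor, and Sca1+ cells (3 arrays), sorted without CD45 and CD31, which mark leukocytes and endothelium. It also gave side population cells (2 arrays), isolated by Hoechst efflux. The bone marrow gave c-kit+ cells (3 arrays) and mesenchymal stem cells, or MSC, taken after 5 passages (3 arrays). Cardiomyocytes, pelleted at 100 rpm for 1 min, were on 2 arrays and carry the title Control. The growth entry is the same for all 16 samples, with Matrigel-coated dishes and mTeSR medium, with no time stated between isolation and RNA extraction. Since no label says that replicates are separate animals or cultures, p-values measure only array-to-array spread, which may be technical.

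The arrays differed in brightness, with median spot intensities of 15 to 200 units. The side population arrays (15 and 22 units) and heart c-kit replicate 2 (18 units) were the dimmest. Kit, which encodes c-kit, averaged 3.67 ± 1.46 in heart c-kit cells and 5.5 ± 0.32 in marrow c-kit cells, against 1.26 ± 1.27 in cardiomyocytes (log2 level; SD, n = 3, 3 and 2). The arrays labelled MSC went against their label in one respect: the mean of 10 macrophage and leukocyte markers was 6.15 to 6.57 there, above the 3.24 to 3.87 of marrow c-kit cells. The mean of 8 cardiomyocyte markers was 6.16 and 6.29 on the cardiomyocyte arrays, where 13 endothelial markers also averaged 6.51 and 6.77. Heart Sca1 replicate 3 stood apart from replicates 1 and 2 in endothelial markers, with a mean of 5.08 against 1.17 and 1.45, and in macrophage and leukocyte markers, with 2.60 against -1.06 and -0.73, although the sort left out CD31+ and CD45+ cells. Of the 5 sort markers listed, 4 were measured: Kit, Abcg2, Ptprc and Pecam1. None of these is the gene of Sca1, so that label was not checked by its own gene. Abcg2 had its lowest mean in the side population, isolated by Hoechst efflux, at 2.50 (0.59 and 4.41 on its 2 arrays). It averaged 4.89 in heart c-kit cells and 4.15 in cardiomyocytes.

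Levels below are log2 values, centred within each array by the authors (except MSC replicate 3, with a mean of 0.3) and quantile normalised here. They compare groups for 1 gene and do not rank genes against each other, and probe positions were not used here. In bulk samples, fewer cells of a type and less RNA per cell cannot be told apart. A difference is the first group minus the second, from a limma fit of all 16 arrays, and a gene was called at a Benjamini-Hochberg adjusted p under 0.05 over all 17710 genes. No member stood at an array's fill value (the repeated value of spots without a usable signal) on any array.

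In assembly GRCm38.p6, Fos lies at chr12:85473890-85477274, Fosb at chr7:19302696-19310118, Fosl1 at chr19:5447698-5455938 and Fosl2 at chr5:32136472-32157840. Jun lies at chr4:95049036-95052222, Junb at chr8:84976909-84978748, Jund at chr8:70697739-70700616 and Atf3 at chr1:191170296-191183333. All are protein-coding genes. RefSeq promoter sequence was at hand for 7 of the 8 members, all but Fosl1. The 130 bases before the start are printed for the 5 members with a match, 5′ to 3′ on the strand of the gene, with the matched letters in capitals. Fosl2 and Jund had no match and are not printed. The letters are TGACG, which begin a cyclic AMP response element, on either strand, and in Jun TGACATCA, the AP-1-like site known from this promoter.
Fos, chr12:85473760-85473889, plus strand: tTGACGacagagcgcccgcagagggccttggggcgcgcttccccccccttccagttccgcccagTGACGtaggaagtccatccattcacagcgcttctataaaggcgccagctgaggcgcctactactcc
Fosb, chr7:19310046-19310175, minus strand: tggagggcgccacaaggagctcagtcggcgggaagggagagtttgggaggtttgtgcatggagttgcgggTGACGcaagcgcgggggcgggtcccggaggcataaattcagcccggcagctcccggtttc
Jun, chr4:95052223-95052352, minus strand: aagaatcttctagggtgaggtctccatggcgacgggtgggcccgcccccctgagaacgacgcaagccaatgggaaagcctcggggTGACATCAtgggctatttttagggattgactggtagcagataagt
Junb, chr8:84978749-84978878, minus strand: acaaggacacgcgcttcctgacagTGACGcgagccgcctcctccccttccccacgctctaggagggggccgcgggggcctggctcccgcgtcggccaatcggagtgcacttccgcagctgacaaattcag
Atf3, chr1:191183334-191183463, minus strand: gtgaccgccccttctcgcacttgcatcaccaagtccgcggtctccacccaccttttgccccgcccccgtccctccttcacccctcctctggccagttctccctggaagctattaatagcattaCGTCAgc

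Within 250 bases before the start, TGACG was found in 4 of the 7 member promoters (Fos, Fosb, Junb and Atf3), against 17.765% of 32851 promoters in the same table. In Fos it lies at bases -129 to -125 and -66 to -62, in Fosb at -60 to -56 and in Junb at -106 to -102. In Atf3 it lies on the opposite strand, read as CGTCA, at -7 to -3. TGACATCA, which holds no TGACG, was found in Jun alone of the 7, at -45 to -38, against 2.928% of promoters. The full response element TGACGTCA and the AP-1 site TGAGTCA were in 0 of the 7, against 1.546% and 4.463%. The letters were chosen with these sequences in view, and a match is a description of the letters only.

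Across the 6 groups, all 8 members differed by the moderated F test of limma, against 31.9% of all genes. Most members were high in heart Sca1 cells, side population cells and cardiomyocytes and low in both c-kit populations, and Fosl1 ran differently, with its highest level in heart c-kit cells. The adjusted p of the F test ran from 8.49e-07 for Atf3 to 0.0131 for Fosl2. Over the 15 pairs of groups, 11 pairs differed in Fos and in Atf3, 9 in Fosb, 6 each in Fosl1, Jun and Junb, 5 in Jund and 4 in Fosl2.

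**Figure D1:**
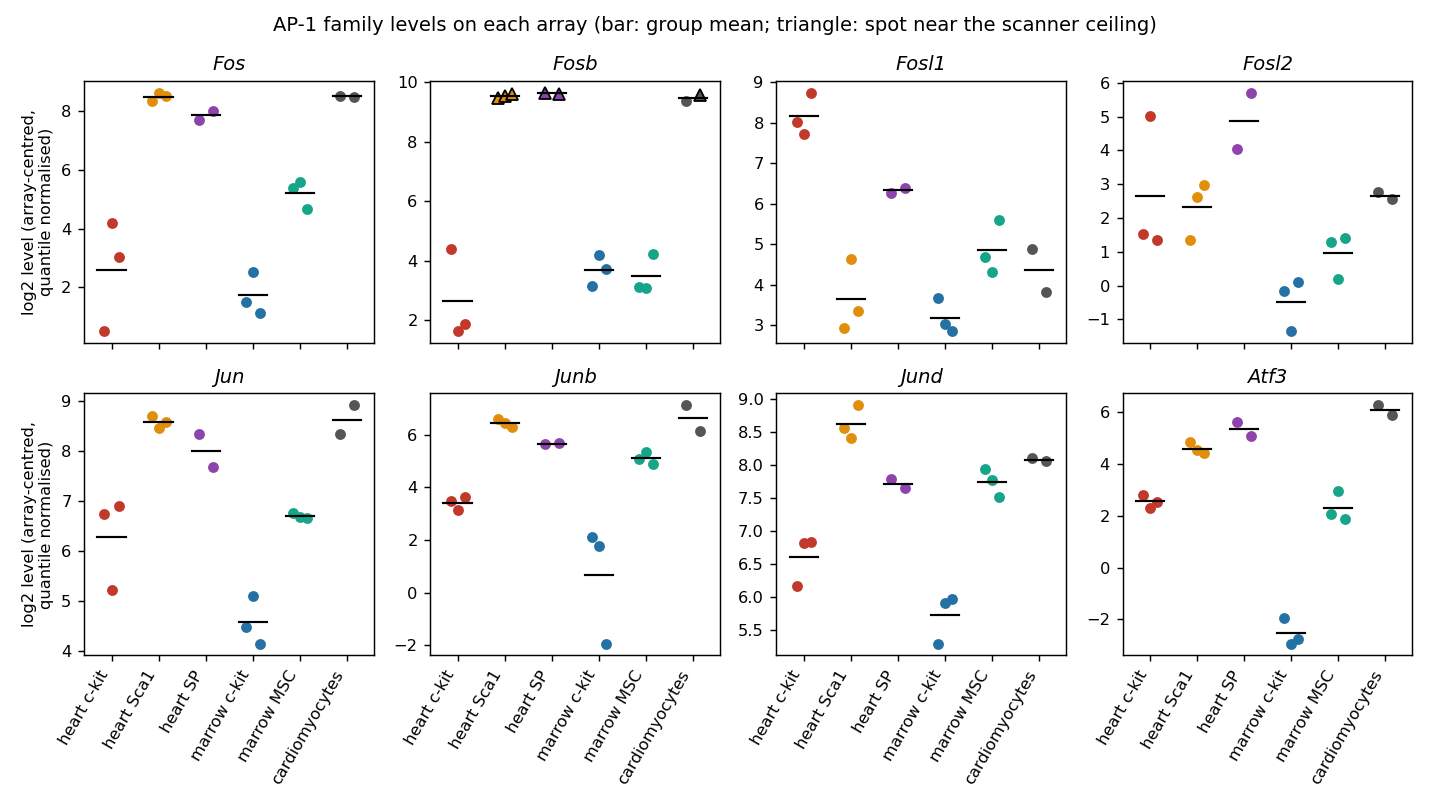
Level of each AP-1 gene on each of the 16 arrays (log2, centred and quantile normalised; y axis, with its own range for each gene) by cell group (x axis); a bar marks the group mean and a triangle a spot near the scanner ceiling. Fosb splits into 3 groups at 9.35 to 9.63 and 3 groups at 1.64 to 4.40, and Fosl1 is highest on the 3 heart c-kit arrays, which holds on this scale and not in the deposited values.

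Fos encodes c-Fos, the founding Fos protein. Its level was 0.51, 4.2 and 3.05 in heart c-kit cells, 8.37, 8.63 and 8.52 in heart Sca1 cells, 7.72 and 8.01 in the heart side population, 1.52, 2.54 and 1.14 in marrow c-kit cells, 5.39, 5.60 and 4.66 in marrow MSC, and 8.54 and 8.48 in cardiomyocytes. Sca1 cells, side population cells and cardiomyocytes lay above every other array, MSC stood between, and the 2 c-kit populations overlapped at the bottom. Fos was 5.92 ± 0.77 lower (SE) in heart c-kit cells than in heart Sca1 cells (limma adjusted p = 0.000262), and the difference was -4.93 without heart c-kit replicate 1 and -6.62 without replicate 2. Marrow c-kit cells were 6.77 ± 0.86 lower than cardiomyocytes (adjusted p = 0.000123) and 3.48 ± 0.77 lower than MSC (adjusted p = 0.00865). The neighbours in the order that differed were side population cells over MSC (2.65 ± 0.86, adjusted p = 0.0472) and heart c-kit cells against MSC (-2.63 ± 0.77, adjusted p = 0.0393). These calls were fragile, since 13 and 8 of the 16 fits that left out an array lost them (adjusted p up to 0.142 and 0.123), and the second was -1.62 without heart c-kit replicate 1 and -3.35 without replicate 2. The 3 heart c-kit arrays spread over 3.69 log2 units in Fos, more than any other group.

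Fosb encodes FosB, a close relative of c-Fos. Its level was 4.40, 1.64 and 1.89 in heart c-kit cells, 9.47, 9.52 and 9.59 in heart Sca1 cells, 9.63 and 9.60 in the heart side population, 3.15, 4.18 and 3.73 in marrow c-kit cells, 3.11, 3.09 and 4.23 in marrow MSC, and 9.35 and 9.57 in cardiomyocytes. These levels fall into a high set of 3 groups and a low set of 3 groups with a wide gap between. No pair of groups differed within the low set in the fit of all arrays. Without heart c-kit replicate 1, Fosb was lower in heart than in marrow c-kit cells (-1.97, limma adjusted p = 0.0325). The Fosb spot stood near the scanner ceiling on all 3 heart Sca1 arrays, both side population arrays and cardiomyocyte replicate 2, at 64652 to 65447 units, so the high groups have only a lower bound and cannot be ranked among themselves. By the fitted means Fosb was 119-fold lower in heart c-kit cells than in heart Sca1 cells and 125-fold lower than in side population cells (limma adjusted p = 3.28e-05 and 6.17e-05). The ceiling may make these folds too small, and array spread can move them either way. The log2 differences, -6.89 ± 0.68 and -6.97 ± 0.76 (SE), were -7.83 and -7.91 without heart c-kit replicate 1. Their smallest sizes over the fits without an array were -6.32 and -6.41. Against MSC Fosb was 66.3-fold higher in heart Sca1 cells and 70.5-fold higher in the side population, with the same limits (adjusted p = 8.48e-05 and 0.000152). On the low side Fosb differed in rank from Fos: MSC held an intermediate level of Fos, but their Fosb level was within 0.21 ± 0.68 of that of marrow c-kit cells (adjusted p = 0.901).

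Fosl1 encodes Fra-1, a Fos relative without the transactivation domain of c-Fos. Its level was 8.02, 7.71 and 8.73 in heart c-kit cells, 2.94, 4.63 and 3.34 in heart Sca1 cells, 6.27 and 6.39 in the heart side population, 3.66, 3.03 and 2.85 in marrow c-kit cells, 4.67, 4.32 and 5.59 in marrow MSC, and 4.89 and 3.81 in cardiomyocytes. All 3 heart c-kit arrays lay above all other arrays on this scale. In the deposited values heart c-kit replicate 1 (6.19) lay below both side population arrays (7.34 and 7.45). It was also below MSC replicate 3 (6.28), but that array kept a mean of 0.3, so this order is uncertain. Fosl1 was 4.52 ± 0.60 higher (SE) in heart c-kit cells than in heart Sca1 cells (limma adjusted p = 0.000304), 4.97 ± 0.60 higher than in marrow c-kit cells (adjusted p = 7.36e-05) and 3.29 ± 0.60 higher than in MSC (adjusted p = 0.00294). Against cardiomyocytes it was 3.81 ± 0.67 higher (adjusted p = 0.00602), a call lost without cardiomyocyte replicate 2 (3.28, adjusted p = 0.0958). The difference between heart c-kit and side population cells did not pass (1.82 ± 0.67, adjusted p = 0.0974). Fosl1 was also the one member called between the Sca1 and side populations of the heart, 2.69 ± 0.67 lower in Sca1 cells (adjusted p = 0.0288). That call was lost without Sca1 replicate 1 or 3 or either side population replicate (-3.20 to -2.35 over all fits without an array, adjusted p of the lost calls 0.0725 to 0.0961). Fosl2 had a difference of similar size in this pair, -2.54 ± 1.01, that did not pass (limma adjusted p = 0.15). It passed without heart c-kit replicate 2 (-2.47, adjusted p = 0.0499).

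Fosl2 encodes Fra-2, the other Fos relative of this kind. Its level was 1.54, 5.03 and 1.34 in heart c-kit cells, 1.36, 2.63 and 2.99 in heart Sca1 cells, 4.04 and 5.70 in the heart side population, -0.17, -1.35 and 0.10 in marrow c-kit cells, 1.30, 0.19 and 1.40 in marrow MSC, and 2.76 and 2.55 in cardiomyocytes. The dim heart c-kit replicate 2 stood 3.49 above the next array of its group and reached into the range of the side population. Fosl2 was 5.34 ± 1.01 higher (SE) in side population cells than in marrow c-kit cells (limma adjusted p = 0.00174), and this call held without any single array, at 4.43 without side population replicate 2 and 6.06 without replicate 1. Against MSC it was 3.90 ± 1.01 higher in side population cells (adjusted p = 0.0175). That call was lost without MSC replicate 2 (3.52, adjusted p = 0.0622) and without side population replicate 2 (3.00, adjusted p = 0.122), and the value was 4.64 without side population replicate 1. The difference of heart c-kit from marrow c-kit cells, 3.11 ± 0.91 (adjusted p = 0.0407), fell to 1.89 without heart c-kit replicate 2 (adjusted p = 0.137) and was lost in 11 of 16 fits without an array. No neighbours in the order of the groups differed in Fosl2, and the F test missed the threshold in a fit without the side population arrays (adjusted p = 0.0598).

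Jun encodes c-Jun, the main partner of Fos proteins. Its level was 6.73, 5.22 and 6.90 in heart c-kit cells, 8.69, 8.45 and 8.57 in heart Sca1 cells, 8.34 and 7.67 in the heart side population, 4.47, 5.09 and 4.14 in marrow c-kit cells, 6.75, 6.67 and 6.65 in marrow MSC, and 8.33 and 8.91 in cardiomyocytes. The 3 high groups were those of Fos, and marrow c-kit cells lay below all other arrays, except that in the deposited values marrow c-kit replicate 2 (4.96) was above heart c-kit replicate 1 (4.91). Jun was 4.05 ± 0.60 lower (SE) in marrow c-kit cells than in cardiomyocytes (limma adjusted p = 0.000479), a 16.6-fold difference. It was 2.29 ± 0.54 lower in heart c-kit cells than in heart Sca1 cells (adjusted p = 0.0149), a call lost without heart Sca1 replicate 1 (adjusted p = 0.0542). Neighbours in the order did not differ, the gap of heart c-kit over marrow c-kit cells included (1.72 ± 0.54, adjusted p = 0.0585).

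Junb encodes JunB, which often opposes c-Jun at shared sites, and had 2 probes. On the probe with the higher mean its level was 3.47, 3.16 and 3.65 in heart c-kit cells, 6.59, 6.43 and 6.31 in heart Sca1 cells, 5.64 and 5.68 in the heart side population, 2.12, 1.79 and -1.93 in marrow c-kit cells, 5.07, 5.34 and 4.90 in marrow MSC, and 7.12 and 6.13 in cardiomyocytes. Marrow c-kit cells were lowest, with replicate 3 far below the others at a dim 18 units, and heart c-kit cells were next. Junb was 5.97 ± 0.93 lower (SE) in marrow c-kit cells than in cardiomyocytes (limma adjusted p = 0.000673) and 4.44 ± 0.83 lower than in MSC (adjusted p = 0.00284). Both calls held in every fit without an array, at -6.77 and -5.24 without marrow c-kit replicate 1 and at -4.67 and -3.16 without replicate 3. Heart c-kit cells were 2.76 ± 0.83 above marrow c-kit cells (adjusted p = 0.0477). Without marrow c-kit replicate 3 this was 1.48 (adjusted p = 0.117), and 14 of 16 fits without an array lost the call. The second probe gave the same direction in each of these comparisons, with smaller differences (-2.67 ± 0.65, -1.79 ± 0.58 and 1.21 ± 0.58; adjusted p over all probes 0.0174, 0.0775 and 0.265).

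Jund encodes JunD, a Jun protein prominent in resting cells. Its level was 6.17, 6.83 and 6.84 in heart c-kit cells, 8.56, 8.42 and 8.91 in heart Sca1 cells, 7.79 and 7.66 in the heart side population, 5.30, 5.91 and 5.98 in marrow c-kit cells, 7.94, 7.78 and 7.52 in marrow MSC, and 8.11 and 8.06 in cardiomyocytes. Jund spanned the narrowest range of group means of the 8 members, 2.90 log2 units between heart Sca1 and marrow c-kit cells (adjusted p = 0.000406 by limma). Both c-kit populations lay below every array of the other groups on this scale. In the deposited values heart c-kit replicates 2 and 3 (8.01 and 7.61) lay above both cardiomyocyte arrays (6.36 and 7.25). Jund was 2.01 ± 0.45 lower (SE) in heart c-kit cells than in heart Sca1 cells (adjusted p = 0.0115), lost without heart Sca1 replicate 3 (adjusted p = 0.0508). In the marrow it was 2.02 ± 0.45 lower in c-kit cells than in MSC (adjusted p = 0.00978), lost without MSC replicate 1 (adjusted p = 0.0512). No neighbours in the order of Jund differed.

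Atf3 encodes a stress-induced factor of the related ATF family that pairs with Jun proteins. Its level was 2.82, 2.32 and 2.53 in heart c-kit cells, 4.84, 4.53 and 4.42 in heart Sca1 cells, 5.62 and 5.10 in the heart side population, -1.93, -2.93 and -2.74 in marrow c-kit cells, 2.09, 2.98 and 1.89 in marrow MSC, and 6.27 and 5.90 in cardiomyocytes. The groups formed 3 steps: cardiomyocytes, side population and Sca1 cells on top, heart c-kit cells and MSC overlapping in the middle, and marrow c-kit cells far below. In marrow c-kit cells the spot read only 10 to 16 units, within the dimmest 23.0% to 32.8% of probes, so the size of differences against this group is uncertain. Atf3 was 8.62 ± 0.56 lower (SE) in marrow c-kit cells than in cardiomyocytes (limma adjusted p = 5.55e-07) and 5.09 ± 0.50 higher in heart c-kit cells than in marrow c-kit cells (adjusted p = 1.29e-05). Heart c-kit cells were 3.53 ± 0.56 below cardiomyocytes (adjusted p = 0.00314) and 2.04 ± 0.50 below heart Sca1 cells (adjusted p = 0.0174). The second of these was lost without heart Sca1 replicate 1 or 2 (adjusted p 0.0509 and 0.0686). The 2 gaps between the steps both passed, at 2.04 and, for MSC over marrow c-kit cells, 4.85 ± 0.50 (adjusted p = 2e-05).

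**Figure D2:**
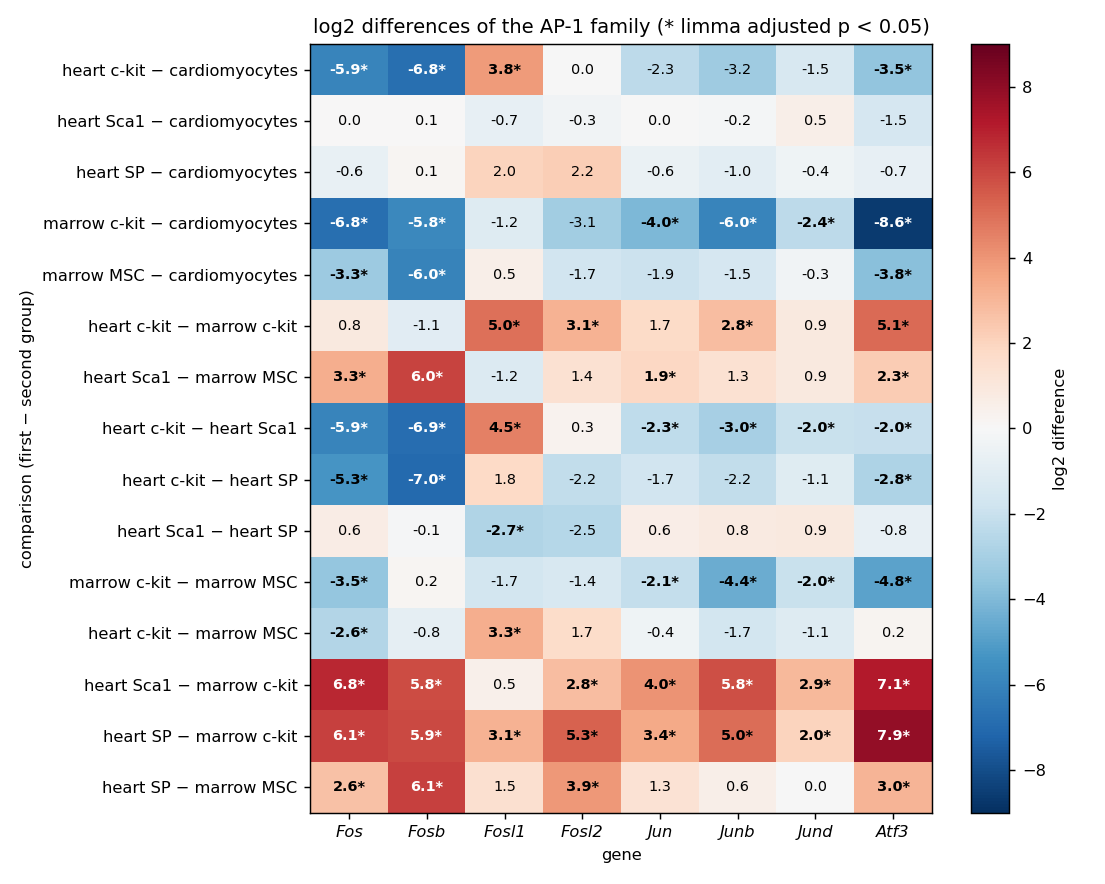
Log2 difference of each AP-1 gene (columns) in the 15 pairs of cell groups (rows, first group minus second; red higher and blue lower in the first group); an asterisk marks a limma adjusted p under 0.05. No member is marked for heart Sca1 or side population cells against cardiomyocytes, and all 8 are marked for side population cells against marrow c-kit cells.

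The next comparisons ask how each population stood to cardiomyocytes, and all 5 share the same 2 cardiomyocyte arrays. In heart c-kit cells 1 member rose (Fosl1) and 3 fell (Fos, Fosb and Atf3), with a median of -2.77 against 0.13 over all genes, of which 3.58% were called (0.994% higher, 2.59% lower). Fosb, at -6.82 ± 0.76 (SE; limma adjusted p = 0.000311), was near the ceiling on 1 of 2 cardiomyocyte arrays, and its difference was -7.77 without heart c-kit replicate 1. Fos, at -5.92 ± 0.86 (adjusted p = 0.00194), was -4.93 without that array and -6.63 without heart c-kit replicate 2. Jun, Junb and Jund had differences of -2.33, -3.20 and -1.47 that did not pass (adjusted p = 0.0501, 0.0791 and 0.146), and Fosl2 had one of -0.01. With array medians aligned in place of quantile normalisation, Fos and Atf3 were -3.49 and -1.74 and did not pass (adjusted p = 0.171 and 0.285), Jund turned to 0.58 and Fosl2 to 1.41, and the median of all genes was 0.83.

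In heart Sca1 cells 0 members rose or fell against cardiomyocytes, where 0% of genes were called. The levels of Fos, Jun and Junb there were within 0.18 of those of cardiomyocytes, with an SE of 0.60 to 0.93, Fosb could not be compared because of its spots near the ceiling, and the largest difference was that of Atf3 (-1.49 ± 0.56, adjusted p = 0.323). When array medians were aligned, Fos, Jun and Junb were 1.55, 1.59 and 1.42 above cardiomyocytes, against 0.52 over all genes, again without passing. In side population cells 0 members rose or fell as well, against 5.17% of genes (1.89% higher, 3.29% lower), with a median of -0.49. Fosl1 and Fosl2 were 1.98 ± 0.73 and 2.22 ± 1.11 above cardiomyocytes without passing (adjusted p = 0.132 and 0.274). This comparison depends on the scaling. With array medians aligned the median of all genes moved to 1.34 and the differences of Fos, Jun, Junb, Jund and Atf3 turned positive (2.50 to 3.34) and did not pass. Fosl1 (5.27) and Fosl2 (4.68) were then called (adjusted p = 0.0153 and 0.0481). Fosb was called too, but its spots near the ceiling in both groups give no difference that can be read.

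In marrow c-kit cells 0 members rose and 6 fell against cardiomyocytes, all but Fosl1 and Fosl2, with a median of -4.91, where 12.4% of genes were called (4.99% higher, 7.43% lower). Fosl2 was -3.13 ± 1.01 and Fosl1 -1.17 ± 0.67 (adjusted p = 0.0614 and 0.34). All 6 calls held in each fit without an array. Jun (-3.14) and Jund (-1.48) did not pass with array medians aligned (adjusted p = 0.0776 and 0.595). In MSC 0 members rose and 3 fell, Fosb by 5.98 ± 0.76, Atf3 by 3.77 ± 0.56 and Fos by 3.29 ± 0.86 (SE; limma adjusted p = 0.00048, 0.00121 and 0.0309), against 7.87% of genes (3.93% higher, 3.94% lower). The call of Fos was lost without any 1 of the MSC or cardiomyocyte arrays (adjusted p 0.0613 to 0.186). The other 5 members did not pass, with differences of -1.93 (Jun) to 0.52 (Fosl1). Fos (-1.50) and Atf3 (-2.11) did not pass either when array medians were aligned (adjusted p = 0.479 and 0.144).

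The organs were compared within c-kit cells and between heart Sca1 cells and MSC. In the second pair organ, cell population and the 5 passages of the MSC cannot be told apart. Between the c-kit populations 4 members were higher in the heart (Fosl1, Fosl2, Junb and Atf3) and 0 lower, with a median of 2.24, where 10.8% of genes were called (4.88% higher, 5.91% lower). Fos and Fosb were not among them, at 0.85 ± 0.77 and -1.05 ± 0.68 (adjusted p = 0.585 and 0.41). The calls of Fosl2 and Junb were lost in 11 and 14 of 16 fits without an array, as given above. Between heart Sca1 cells and MSC 4 members were higher in the heart (Fos, Fosb, Jun and Atf3) and 0 lower, with a median of 1.63, against 10.3% of genes (5.3% higher, 5.01% lower). Fos was 3.29 ± 0.77, Atf3 2.28 ± 0.50 and Jun 1.88 ± 0.54 higher (SE; limma adjusted p = 0.013, 0.00887 and 0.0401). Jun lost its call in 7 of 16 fits without an array and Fos without MSC replicate 3 (adjusted p = 0.0604). With array medians aligned only Fosb of these 4 passed, and Fos (3.05), Jun (1.64) and Atf3 (2.26) had adjusted p of 0.105, 0.354 and 0.0723. Atf3 was the one member called higher in the heart in both comparisons. Fos, Fosl2, Jun, Junb and Jund had positive differences in both as well, but none of them passed in both. Jun was 1.72 ± 0.54 higher in heart c-kit cells and just missed (limma adjusted p = 0.0585). Fosb and Fosl1 had opposite signs in the 2 comparisons.

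Heart c-kit cells against heart Sca1 cells had 1 member higher (Fosl1) and 6 lower (all others but Fosl2), with a median of -2.16, where 11.1% of genes were called (3.29% higher, 7.81% lower). The call of Junb (-3.02 ± 0.83, adjusted p = 0.0318) was lost without heart c-kit replicate 1 or 2 or any 1 Sca1 array (adjusted p 0.0649 to 0.0893). With array medians aligned Jun, Junb, Jund and Atf3 did not pass, at -2.69 to -1.59 (adjusted p 0.0922 to 0.317). Against side population cells, 0 members were higher in heart c-kit cells and 3 lower (Fos, Fosb and Atf3), with a median of -2.23, against 11.8% of genes (5.99% higher, 5.79% lower). Fos was -5.28 ± 0.86 and Atf3 -2.80 ± 0.56 (SE; limma adjusted p = 0.00123 and 0.00489), and Fos was -4.29 without heart c-kit replicate 1 and -5.98 without replicate 2. Jun (-3.44) and Junb (-3.77) passed as well when array medians were aligned (adjusted p = 0.0345 and 0.0343), and 5 members were then called. Between Sca1 and side population cells 0 members were higher and 1 lower (Fosl1), with a median of 0.24, against 6.83% of genes (4.62% higher, 2.21% lower). In the marrow, c-kit cells had 0 members higher and 5 lower than MSC (Fos, Jun, Junb, Jund and Atf3), with a median of -2.07, against 11% of genes (3.66% higher, 7.35% lower). Jun was 2.12 ± 0.54 lower there (adjusted p = 0.0205), lost without marrow c-kit replicate 1 or 3 or any 1 MSC array (adjusted p 0.0627 to 0.0837). Jund did not pass with array medians aligned (-2.90, adjusted p = 0.097).

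The remaining pairs set heart against marrow populations of different kinds. Side population cells exceeded marrow c-kit cells in 8 members and heart Sca1 cells exceeded them in 7, with 0 lower in either, against 21.2% of genes (9.92% higher, 11.3% lower) and 16.5% (10% higher, 6.46% lower). Atf3 was 7.89 ± 0.56 and 7.13 ± 0.50 higher, of uncertain size at its dim marrow c-kit spots (SE; limma adjusted p = 7.47e-07 and 3.76e-07). Side population cells exceeded MSC in 4 members (Fos, Fosb, Fosl2 and Atf3) with 0 lower, against 17.7% of genes (7.06% higher, 10.6% lower). Heart c-kit cells had 1 member above MSC (Fosl1) and 1 below (Fos), against 12.1% of genes (4.11% higher, 8% lower).

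The members varied together to different degrees. Over the 16 arrays, which share their 6 groups, Pearson's r was 0.92 between Fos and Jund and between Jun and Atf3, 0.90 between Jun and Junb and 0.87 between Fos and Jun. Fosl1 stood apart, with r of -0.29 to 0.26 with the other members except Fosl2 (0.47). These are descriptions of levels that follow the cell groups.

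**Figure D3:**
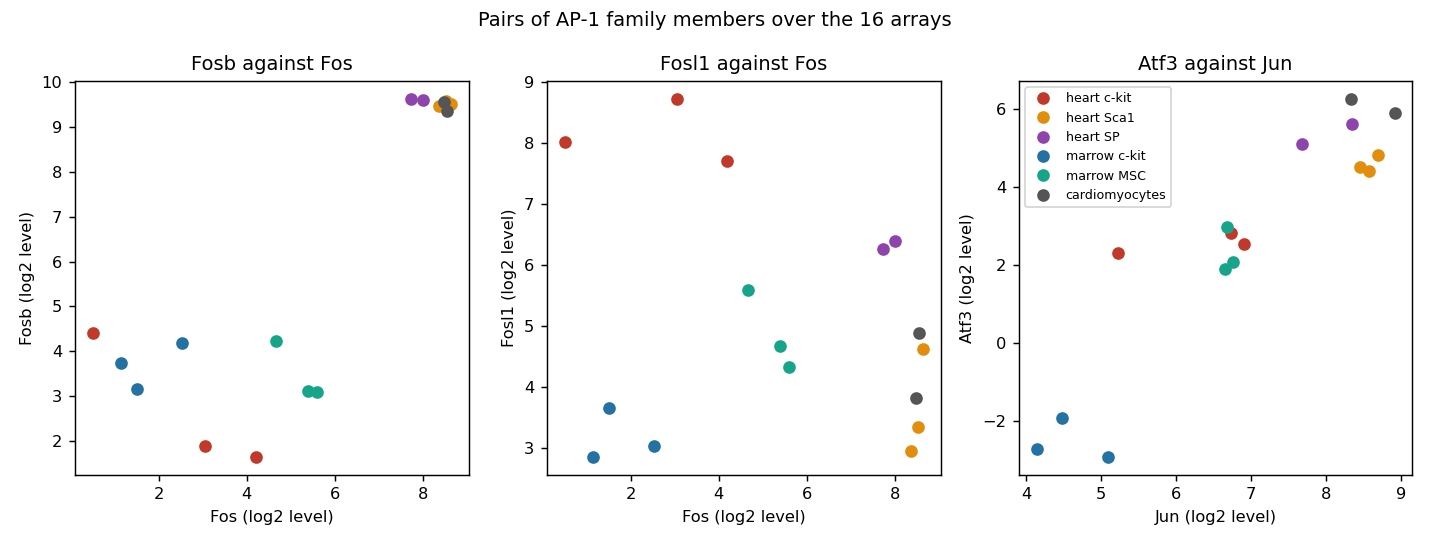
Levels of 3 pairs of AP-1 genes on the 16 arrays (both axes log2 level), each point an array coloured by cell group. Fosb and Fos are high on the same 7 arrays, Fosl1 is highest on heart c-kit arrays with low Fos on this scale, and Atf3 is lowest on the marrow c-kit arrays, where Jun is low too.

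Of 17406 genes not at fill on most arrays, those with the pattern most like Fos over the 16 arrays were Htra3, Pam and Sspn (Pearson's r 0.984, 0.972 and 0.954). For Fosb they were Dmd, Aldh1a1 and Scn7a (0.982, 0.978 and 0.972), for Jun Gsn, Egr1 and Vegfc (0.958, 0.952 and 0.951), and for Junb Glul, Abca1 and Tns1 (0.961, 0.953 and 0.935). Jund was nearest to Gask1b, Cdk5r1 and Zcchc24 (0.959, 0.945 and 0.943), and Atf3 to Dcn, Igfbp5 and Itga9 (each 0.961). Fosl1 had less close neighbours, Fam167b, Gm6498 and Blvrb (0.874, 0.853 and 0.853), and Fosl2 had Relb, Ankrd2 and Pcdhb16 (0.928, 0.892 and 0.873). Of these genes, Egr1 is on the list of immediate early genes and Dcn on that of fibroblast markers.

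Other immediate early genes were read for comparison with the family. Of 28 measured of 30 listed, 25 differed across the groups by the F test of limma, against the 31.9% of all genes. For the counts per pair in this and later lists, the shares of all genes called are those given above. None was higher in marrow c-kit cells than in cardiomyocytes and 21 were lower, led by Klf4 (-8.25 ± 0.78 SE, adjusted p = 9.32e-06), a Kruppel-like factor. In heart c-kit cells 0 rose and 8 fell against cardiomyocytes, and 0 rose and 11 fell against heart Sca1 cells. Egr2, an early zinc finger factor, was -6.07 ± 1.55 and -6.47 ± 1.38 there (adjusted p = 0.0459 and 0.00856). Its heart c-kit arrays ran from -3.65 to 3.81 (SD 4.19), so these sizes are uncertain. Heart Sca1 cells had 0 such genes called against cardiomyocytes, and side population cells 1 (Dusp2, -3.55 ± 0.96, adjusted p = 0.0473), a phosphatase of MAP kinases. Between the organs, 13 were higher and 0 lower in heart than in marrow c-kit cells, with Trib1, a pseudokinase, at 6.08 ± 0.50 (adjusted p = 2.85e-06).

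Few of the kinases and promoter factors that act on AP-1 genes passed. Of 17 measured of 18 listed, 4 differed across the groups by the F test, against 31.9% of all genes. Over the 15 pairs of groups at most 4 of them passed, all 4 lower in side population cells than in MSC, and 3 were lower in side population than in marrow c-kit cells. Map2k4, a kinase that activates JNK, the kinase of c-Jun, was 7.43 ± 0.79 higher (SE) in heart c-kit cells and 6.85 ± 0.79 higher in heart Sca1 cells than in side population cells (limma adjusted p = 5.28e-05 and 0.000272). It averaged -2.34 on the dim side population arrays, under the 30th percentile of all values (-1.64), so these sizes are uncertain. Mapk9, which encodes a JNK, was 3.31 ± 0.65 lower in heart c-kit cells than in heart Sca1 cells (adjusted p = 0.00519) and 2.35 ± 0.65 lower than in marrow c-kit cells (adjusted p = 0.0321). Of 12 measured of 14 listed leucine zipper partners, 6 differed across the groups by the F test, against 31.9% of all genes. Maff, a small Maf protein, was 5.11 ± 0.60 higher in heart than in marrow c-kit cells, and Batf, a partner of Jun proteins in leukocytes, was 5.89 ± 1.34 lower (adjusted p = 5.86e-05 and 0.0104), of uncertain size at a heart c-kit mean of -2.08. Crem, a cyclic AMP response factor, was 5.39 ± 0.54 lower in marrow c-kit cells than in cardiomyocytes (adjusted p = 1.45e-05).

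Genes known as AP-1 targets were higher in some comparisons where Fos was lower. Of 16 measured of 18 listed, 13 differed across the groups by the F test, against 31.9% of all genes. In heart c-kit cells 6 targets rose and 0 fell against cardiomyocytes, with a median of 2.06, where 0.994% of all genes were higher and 2.59% lower. Fos and Fosb were low and Fosl1 high there. Any part of AP-1 levels in the levels of these targets was not tested. Spp1, which encodes osteopontin, was 6.18 ± 0.73 and Mmp10, a matrix metalloproteinase, 6.12 ± 1.44 higher (SE; limma adjusted p = 0.000488 and 0.0301). Mmp10 averaged -4.80 in cardiomyocytes, under the 30th percentile of all values (-1.64), so its size is uncertain. MSC had 8 targets higher and 1 lower than cardiomyocytes, against 3.93% and 3.94% of all genes. Heart Sca1 cells had 1 higher and 8 lower than MSC, against 5.3% and 5.01% of all genes, and 4 AP-1 members were higher there. The target higher in heart Sca1 cells was Il6, a cytokine gene (8.73 ± 1.63, adjusted p = 0.00327), of uncertain size since it averaged -3.54 in MSC, and Spp1 was 6.49 ± 0.65 lower (adjusted p = 3.79e-05).

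In marrow c-kit cells targets and AP-1 members were low together, with 0 targets higher and 7 lower than in cardiomyocytes (4.99% and 7.43% of all genes). Against MSC 0 targets were higher and 11 lower (3.66% and 7.35% of all genes). Ptgs2, the inducible cyclooxygenase, had a difference of -9.54 ± 0.99 from cardiomyocytes, and Timp1, an inhibitor of metalloproteinases, one of -12.44 ± 0.80 from MSC (SE; limma adjusted p = 2.23e-05 and 7.06e-07). Each stood at the fill value on 1 of 3 marrow c-kit arrays, so these sizes are uncertain. Heart c-kit cells had 10 targets higher and 0 lower than marrow c-kit cells, against 4.88% and 5.91% of all genes.

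**Figure D4:**
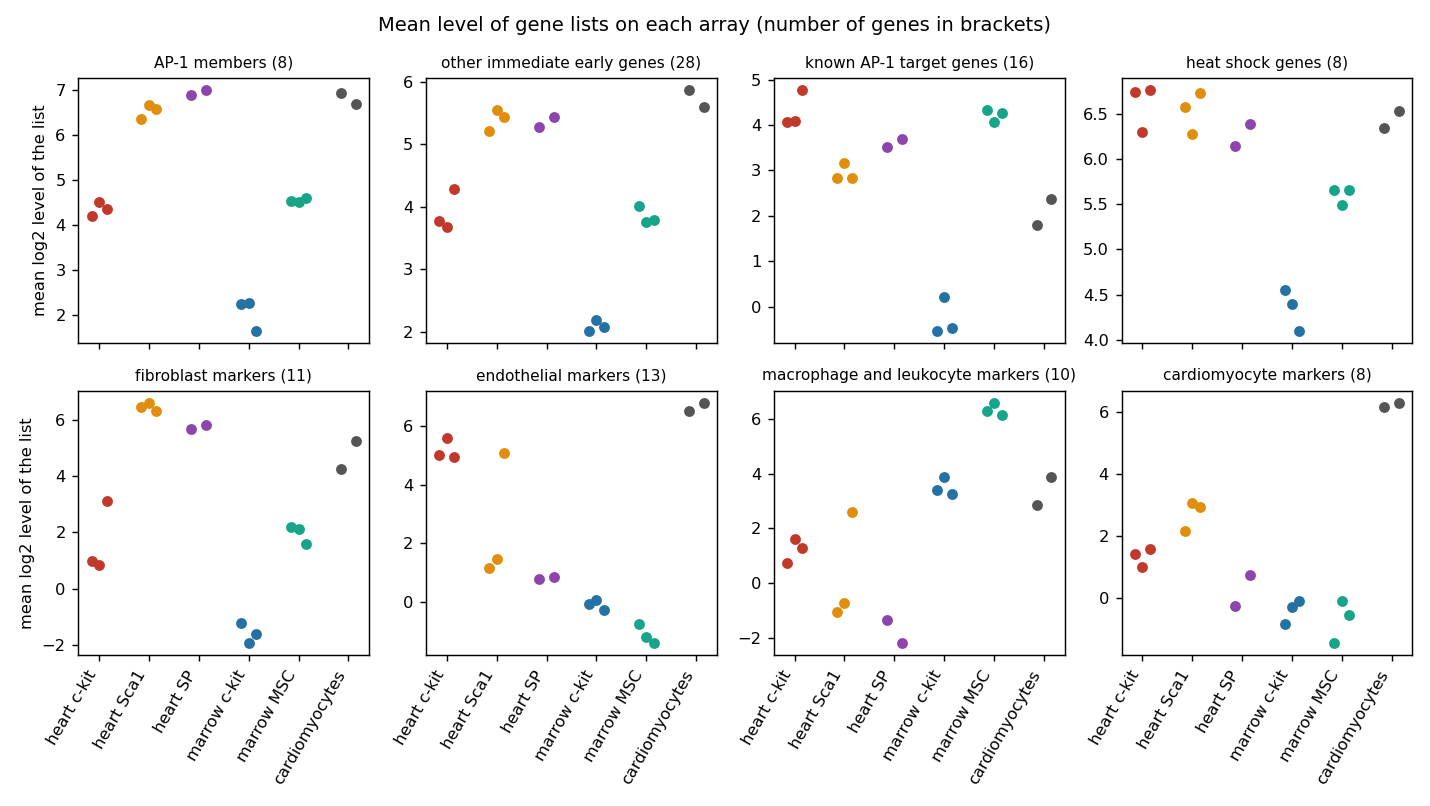
Mean log2 level (y axis) of 8 gene lists on each of the 16 arrays by cell group (x axis); the number of measured genes stands in brackets. The AP-1 mean is 6.35 to 6.98 in heart Sca1 cells, side population cells and cardiomyocytes and 1.66 to 4.60 in the other groups, and fibroblast markers are high on the same 7 arrays.

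The plot of list means sets marker levels beside the AP-1 levels. The mean of the 8 members was 4.21 to 4.51 in heart c-kit cells, 6.35 to 6.66 in heart Sca1 cells, 6.88 and 6.98 in the heart side population, 1.66 to 2.28 in marrow c-kit cells, 4.50 to 4.60 in marrow MSC, and 6.92 and 6.67 in cardiomyocytes. The mean of 11 fibroblast markers (11 of 11 measured) was 0.85 to 3.12, 6.33 to 6.61, 5.68 and 5.84, -1.96 to -1.23, 1.58 to 2.21, and 4.28 and 5.28 in the same order of groups. All 11 of these markers differed across the groups by the F test, against 31.9% of all genes, and their part in the AP-1 differences was not tested. Col3a1, a fibrillar collagen, stood at fill on 2 of 3 heart c-kit arrays. Endothelial markers ran otherwise: the mean of 13 (13 of 13 measured) was 4.94 to 5.59 in heart c-kit cells, 1.17 to 5.08 in heart Sca1 cells, 0.79 and 0.85 in the heart side population, -0.27 to 0.05 in marrow c-kit cells, -1.42 to -0.75 in marrow MSC, and 6.51 and 6.77 in cardiomyocytes. In heart c-kit cells 11 of them were higher than in marrow c-kit cells, 6 higher than in heart Sca1 cells and 10 higher than in side population cells, with 0 lower in each, and their part in the AP-1 differences was not tested. Heart Sca1 replicate 3, with its high endothelial and leukocyte markers, lay outside the range of replicates 1 and 2 in 5 of the 8 members. It lay above in Fosb (9.59), Fosl2 (2.99) and Jund (8.91) and below in Junb (6.31) and Atf3 (4.42). Any 1 of 3 arrays often lies outside the range of the other 2 by spread alone. The count therefore cannot show an effect of those markers, which was not tested.

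Heat shock genes, which rise under cell stress, gave a partly different order. The mean of 8 measured of 10 listed was 6.30 to 6.76 in heart c-kit cells, 6.28 to 6.73 in heart Sca1 cells, 6.15 and 6.39 in the heart side population, 4.10 to 4.55 in marrow c-kit cells, 5.49 to 5.66 in marrow MSC, and 6.34 and 6.53 in cardiomyocytes. The ranges of the heart groups, cardiomyocytes included, overlapped, and both marrow groups lay below. Hspa1a, an inducible Hsp70 gene, was 6.71 ± 0.48 higher (SE) in heart than in marrow c-kit cells and 4.15 ± 0.54 lower in MSC than in cardiomyocytes (limma adjusted p = 1.19e-06 and 0.00057). Against heart Sca1 cells, heart c-kit cells had 1 heat shock gene higher, Hsph1 (2.20 ± 0.52, adjusted p = 0.0141), and 0 lower, while 6 AP-1 members were lower there.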

How the data were processed

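RNA of 16 samples was amplified (WT-Ovation Pico), labelled with Cy5 and read in the Cy5 channel of 2-colour arrays, per the labels and the series text. The deposited values are log2 intensities that the authors centred on each array's mean, as read from the values. The exception was MSC replicate 3, which had a mean of 0.3. The sources used here give no scanner settings, background correction or fill rule. Brightest spots stood at 65436 to 65471 units, and 3.38% to 13.8% of probes per array held the fill value.

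Array medians differed by 1.45, over the limit of 0.5, so values were quantile normalised over 26423 probes. The probe with the highest mean stood for each of 17710 genes; names came from a GRCm38.p6 RefSeq table. The 6 group means were fitted with limma 3.58.1 (R 4.3.3; residual degrees of freedom 10, prior 3.81), with adjustment over all genes. Groups came from the labels. Simulated arrays (3 against 2, 17710 genes) had 200 genes changed in heart c-kit cells. The comparison with cardiomyocytes recovered 0%, 1.33%, 42% and 68% of genes that truly differed by 1, 2, 4 and 6 (log2). Small differences were mostly missed there, and the rates were not computed for other comparisons or for more changed genes. Alternatives were other scalings, raised low values, a filter on low genes, means over probes, other moderation, array weights, a replicate block, fits restricted to the compared groups and fits without an array. Named genes were all members, up to 2 called genes with the largest difference per list and comparison, and the 3 genes most correlated with each member. Members and lists were chosen with earlier results of these data known.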

Additional observations from a re-analysis of the deposited data

Results flagged for a closer look

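The organ difference was tested between cell classes as a contrast of differences: heart minus marrow in c-kit cells, minus heart Sca1 cells minus MSC. This contrast was chosen after seeing the data, and the Sca1 and MSC populations were isolated in different ways. Organ, cell population and passage cannot be told apart in that pair. It differed in 3 members, against 7.43% of all genes. Fosb had an organ difference of -1.05 in c-kit cells and 6.05 in the other pair, which differ by -7.10 ± 0.96 (SE, limma adjusted p = 0.000556). This size may be too small because Fosb was near the scanner ceiling in heart Sca1 cells. Fosl1 ran the other way, 4.97 in c-kit cells and -1.23 in the other pair, a difference of 6.2 ± 0.85 (adjusted p = 0.000579). Both calls held in every fit without an array. Atf3, the stress-induced ATF factor, was higher in the heart in both pairs, by 5.09 in c-kit cells and 2.28 in the other pair, a difference of 2.81 ± 0.70 (adjusted p = 0.0265). This call was lost with array medians aligned (3.21, adjusted p = 0.0902), with the deposited values unchanged (2.58, adjusted p = 0.137) and in 7 of 16 fits without an array. Fos had organ differences of 0.85 and 3.29, whose difference did not pass (-2.44 ± 1.09, adjusted p = 0.217). Jun, Junb, Jund and Fosl2 did not pass either.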

How the results depend on the processing

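Of 58 called member differences in the 15 pairs of groups, 29 were called under every alternative tried and 0 turned sign. Of 216 alternatives of the F test, 1 lost its call (Fosl2 without the side population arrays). Leaving aside fits added after seeing the data, the F test called 4424 to 6637 of all genes, against 5641 in the fit reported above. A setting that calls more or fewer genes in general can change the member counts below by itself. Shares of all genes per pair under each setting are not given, so these counts describe the settings and not the members alone. With array medians aligned, the members called were 2 for heart c-kit cells, 3 for side population cells and 1 for MSC against cardiomyocytes, 1 for heart Sca1 cells against MSC, and for heart c-kit cells 3 against Sca1 and 5 against side population cells. With the deposited values unchanged they were 2, 1 and 1 for the same 3 groups against cardiomyocytes and 2 each for heart against marrow c-kit cells and heart Sca1 cells against MSC. Raised low values gave 1 for heart Sca1 cells against cardiomyocytes and 5 for heart c-kit against side population cells; trend and robust moderation gave 7 for heart c-kit cells against cardiomyocytes and 6 against side population cells. Array weights gave 2 between the c-kit populations and 0 between Sca1 and side population cells, as did leaving out the MSC arrays, a fit added after seeing the data. Fits of only the groups compared gave 0, 2, 4 and 0 for heart c-kit cells against cardiomyocytes, marrow c-kit, Sca1 and side population cells, and 0 between the last 2; they hold fewer arrays. Over fits without an array the F test called 8 to 8 members. Against cardiomyocytes the counts were 3 to 5 (heart c-kit), 0 to 0 (Sca1), 0 to 0 (side population), 6 to 7 (marrow c-kit) and 2 to 4 (MSC). They were 2 to 4 between the c-kit populations, 2 to 4 for Sca1 cells against MSC, 4 to 7 and 3 to 4 for heart c-kit against Sca1 and side population cells, 0 to 2 between those 2, and 3 to 5 within the marrow. Equal replicate numbers did not pair the samples (correlation of deviations -0.18 to 0.40 over 36 pairs); the replicate block gave 8 members by the F test, and 3 in place of 4 in those same heart-marrow comparisons. Low signal limits the size of differences against marrow c-kit cells in Atf3 (10 to 16 units), and the scanner ceiling limits that of Fosb. In marrow c-kit cells Junb on replicate 3 (18 units) and Fosl2 (29 to 80 units) were dim too, so sizes against this group are less certain for them.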
